A study of Arabidopsis thaliana with 15 samples.

Results

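The 9 genes described here are CCA1 (AT2G46830), LHY (AT1G01060) and 7 REVEILLE genes, RVE1 (AT5G17300), RVE2 (AT5G37260), RVE4 (AT5G02840), RVE5 (AT4G01280), RVE6 (AT5G52660), RVE7 (AT1G18330) and RVE8 (AT3G09600). They were taken by locus identifier from the 28775 genes counted, and all 9 were among the 21716 genes with enough counts to be tested. RNA was sequenced from tissue labelled inflorescence meristem of Arabidopsis thaliana, in 15 libraries of 6 groups. All plants were of the Ler accession and 6 weeks old, kept at 21 °C. There were 3 groups without spray: 2 libraries of wild type, 3 of ap1-1, a mutant in floral identity, and 2 of pAP1>>miR STM/BP ap1-1. The last, called the microRNA line below, carries in ap1-1 a microRNA that targets the meristem homeobox genes STM and BP (also KNAT1), driven by the AP1 promoter. The sprayed plants were 35s::STM-GR after dexamethasone (DEX, 3 libraries) or mock (3 libraries), and wild type after DEX (2 libraries). Mock spray was 0.02% of the wetting agent siluwet-L-77, DEX spray added 10 µM dexamethasone to it, and plants were sampled 5 h later. The AP1 promoter is active mainly in young flowers, and AP1 itself is mutated in both ap1-1 groups. The 35s promoter drives expression in most cells, and the GR fusion protein moves into the nucleus when DEX is present.

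CCA1 and LHY are MYB-like transcription factors of the circadian clock. Their transcripts peak around dawn, and the proteins repress evening genes such as TOC1, whose products in turn repress CCA1 and LHY. RVE8, RVE4 and RVE6 share the DNA-binding domain but activate evening genes, together with the LNK coactivators. RVE1, RVE2 (also CIRCADIAN 1) and RVE7 (also EPR1) belong to the branch nearer to CCA1 and LHY, and RVE1 links the clock to auxin and seedling growth. Because these transcripts change through the day, their level depends on the hour of harvest. The labels give no harvest hour, so clock time and group cannot be told apart in any comparison below.

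The libraries held 18717248 to 26539358 gene counts. Replicates differed beyond sampling noise in every group, with a chi-square per gene between libraries of 14.2 in unsprayed wild type, 17.4 to 32.2 in ap1-1 and 3.14 to 7.67 in the other groups. The labels do not say that replicates came from separate plants or cultures. The p-values rest on the spread between these libraries, estimated in 1 fit over all 6 groups and not from the compared groups alone. The label of the tissue was checked against 7 meristem markers. CLV3, a stem cell signal, held 0 to 2 counts in every library. In unsprayed wild type (n = 2) CLV1 was at 49.5, WUS at 34.4, LFY at 5.47 and UFO at 0.864 CPM. The summed level of 3 mature pollen genes was 1326 and 846 CPM in those 2 libraries. STM was at 47.9 ± 3.35 CPM (SD, n = 3) in ap1-1 and 31.5 ± 0.528 CPM (n = 2) in the microRNA line (log2 fold change -0.61 ± 0.08, edgeR adjusted p = 1.49e-04). BP, the other target of the microRNA, was at 53.6 ± 11.7 CPM in ap1-1 and 40.6 ± 1.13 CPM in the microRNA line and was not called (log2 -0.41 ± 0.14, edgeR adjusted p = 0.0701); it was called lower in DESeq2 (adjusted p = 0.0493) and in edgeR without ap1-1 replicate 2 (0.00280). In 35s::STM-GR plants STM counts include the transgene and were alike with DEX (822 ± 47.6 CPM, n = 3) and mock (814 ± 8.22 CPM, n = 3). CPM are gene counts scaled to the size of each library with its TMM factor.

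Upstream sequences of 4 of the 9 genes are printed, chosen by their transcript levels. CCA1 and LHY have the most similar pattern of any pair of the 9, and RVE2 is the member that was highest in the microRNA line. RVE7 is the member whose DEX response was called different between genotypes, a call lost in 8 of the 15 fits that leave out 1 library. Whether the motifs bear on the transcript levels was not tested. Each sequence is the 250 bases before the annotated gene start in the RefSeq annotation of TAIR10.1, a reference from the Col accession. It is written 5′ to 3′ on the gene's strand with motif matches in capitals. They lie at chr2:19245341-19245590 (plus strand, CCA1), chr1:37872-38121 (minus strand, LHY), chr5:14753089-14753338 (minus strand, RVE2) and chr1:6308244-6308493 (minus strand, RVE7). Capitals mark a G-box in CCA1 and LHY, a CCA1 binding site and a G-box (in this order) in RVE2, and an evening element in RVE7.
CCA1: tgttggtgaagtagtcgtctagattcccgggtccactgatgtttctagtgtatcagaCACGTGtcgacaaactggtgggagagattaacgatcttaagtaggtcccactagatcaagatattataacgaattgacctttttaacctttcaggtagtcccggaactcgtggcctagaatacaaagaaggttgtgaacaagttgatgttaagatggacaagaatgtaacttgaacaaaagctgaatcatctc
LHY: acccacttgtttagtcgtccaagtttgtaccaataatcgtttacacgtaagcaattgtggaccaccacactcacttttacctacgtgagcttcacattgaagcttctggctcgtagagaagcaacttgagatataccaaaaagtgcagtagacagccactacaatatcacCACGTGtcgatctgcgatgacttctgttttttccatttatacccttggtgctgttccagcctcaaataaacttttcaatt
RVE2: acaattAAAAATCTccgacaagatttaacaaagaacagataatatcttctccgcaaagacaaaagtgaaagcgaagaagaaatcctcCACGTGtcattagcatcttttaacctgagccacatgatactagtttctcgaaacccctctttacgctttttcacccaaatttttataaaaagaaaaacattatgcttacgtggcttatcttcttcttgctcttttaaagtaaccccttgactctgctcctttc
RVE7: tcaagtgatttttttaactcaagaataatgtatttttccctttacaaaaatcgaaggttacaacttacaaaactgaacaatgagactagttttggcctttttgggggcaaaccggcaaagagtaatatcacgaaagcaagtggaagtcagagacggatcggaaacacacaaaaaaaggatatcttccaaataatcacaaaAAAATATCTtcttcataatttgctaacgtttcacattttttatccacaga

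Motifs were searched on both strands from 250 bases before to 50 bases after the start of each gene. The G-box (CACGTG, bound by bHLH and bZIP factors, PIF proteins among them) was present in 6 of the 9 windows. It was found in 7.68% of all 27443 windows, placed in the same way at nuclear protein-coding genes. The CCA1 binding site (AAAAATCT) was found in 2 of 9 and in 7.88% of all windows, and the evening element (AAAATATCT), the site through which CCA1 and RVE proteins act on evening genes, in 1 of 9 and in 2.82%. The core bound by KNOX proteins such as STM (TGACAG) was found in 1 of 9, RVE5, and in 7.0% of all windows. None of the 4 motifs contains another, and the G-box reads the same on both strands. G-boxes began 193 bases before the start in CCA1, 80 in LHY, 111 in RVE1, 163 in RVE2 and 52 in RVE5, and 12 bases after it in RVE8. RVE4 had no match in its window. A match is a description of these letters in the reference and not evidence of binding.

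**Figure D1:**
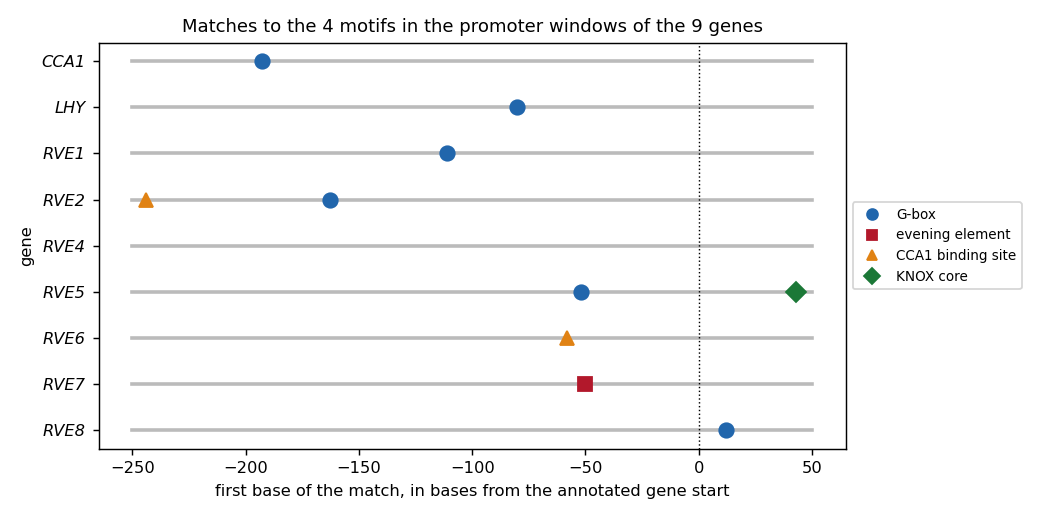
Matches to the 4 motifs (symbols) in the window of each of the 9 genes; the x axis is the distance in bases of the first base of the match from the annotated gene start, from 250 before to 50 after it. G-boxes lie in 6 windows, and the evening element in that of RVE7 alone.

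Uniqueness of the sequence bears on how far the counts can be trusted. In RVE7, 1048 of 1781 exonic words of 50 bases (58.8%) recur elsewhere in the nuclear genome, 863 of them within the RVE7-like gene AT3G10113, so its count is less certain. AT3G10113 itself held 0 to 4 counts per library. In RVE2 the number was 2 of 735 words, and in the other 7 genes it was 0. RVE5 overlaps AT4G01290 on the opposite strand by 681 bases and RVE1 overlaps AT5G17305 by 225 bases, and since no source says whether the counting used strand, reads from those stretches cannot be assigned to a strand.

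In unsprayed wild type the 9 genes spanned a wide range of levels. Per kilobase of exon, LHY was lowest at 1.73 CPM per kb, followed by RVE8 (2.79), CCA1 (3.50), RVE1 (5.99), RVE5 (7.27), RVE7 (7.36), RVE6 (11.5), RVE2 (16.1) and RVE4 (23.1). RVE4, an activator of evening genes, was thus the highest member there, and in the microRNA line RVE2 took that place with 97.3 CPM per kb. The rank of RVE7 is less certain, since its exon length includes the stretches that recur elsewhere in the genome. Depth limits the lowest values: in the microRNA libraries LHY rested on 21 and 25 counts, CCA1 on 32 and 50 and RVE8 on 43 and 38.

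CCA1 was at 1.70 and 2.42 CPM in the microRNA line, 7.11, 8.10 and 7.86 in ap1-1, 9.51 and 9.55 in unsprayed wild type, 11.9, 10.9 and 11.1 in 35s::STM-GR with mock, 10.9 and 14.0 in wild type with DEX, and 16.1, 19.0 and 19.1 in 35s::STM-GR with DEX. Only the mock and wild-type DEX libraries overlapped among neighbours in this order. LHY, its closest homologue, was at 1.12 and 1.21 CPM in the microRNA line, 5.80, 4.13 and 3.95 in ap1-1, 5.98 and 5.83 in wild type, 7.52, 6.67 and 7.74 with mock, 6.79 and 8.90 in wild type with DEX and 8.60, 9.34 and 11.4 in 35s::STM-GR with DEX. The order of the groups was the same as for CCA1, with the 3 sprayed groups overlapping from each to the next. The highest group mean was 8.75 times the lowest for CCA1 and 8.40 times for LHY, against a median ratio of 1.45 over all genes tested.

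Of the RVE8 branch, RVE8 itself had the same lowest and highest groups. It was at 2.29 and 1.84 CPM in the microRNA line, 4.19, 3.65 and 5.37 in ap1-1, 6.35 and 6.74 in wild type, 6.25 and 8.38 in wild type with DEX, 9.42, 9.86 and 9.69 with mock and 12.0, 14.3 and 15.5 in 35s::STM-GR with DEX. Unsprayed and DEX-sprayed wild type overlapped, and every other pair of neighbours was separate. RVE4 was at 34.5 and 35.3 CPM in the microRNA line, 34.4, 43.0 and 41.1 in ap1-1, 53.0 and 44.3 in wild type, 60.6 and 74.2 in wild type with DEX, 67.8, 94.2 and 74.6 with mock and 116, 114 and 125 in 35s::STM-GR with DEX. The microRNA line overlapped ap1-1 here, and mock overlapped DEX-sprayed wild type. RVE5 and RVE6 varied least, with ratios of highest to lowest group mean of 1.56 and 1.73. RVE5 ranged from 13.7 CPM in an ap1-1 library to 25.4 CPM in a 35s::STM-GR library with DEX, and its lower 3 groups (ap1-1, microRNA line, wild type) overlapped. RVE6 ranged from 12.3 CPM in the microRNA line to 22.9 CPM in 35s::STM-GR with DEX.

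RVE1, RVE2 and RVE7 differed more from each other. RVE1 was at 6.07 and 6.54 CPM in the microRNA line, 8.84, 11.4 and 6.99 in ap1-1, 15.8 and 8.39 in wild type, 18.9 and 19.3 in wild type with DEX, 27.1, 25.8 and 23.2 with mock and 55.6, 55.1 and 49.7 in 35s::STM-GR with DEX. Its 2 unsprayed wild-type libraries stood far apart, and all 3 DEX-sprayed 35s::STM-GR libraries were above every other library. RVE2 was at 95.7 and 94.9 CPM in the microRNA line, 14.2, 14.8 and 9.43 in ap1-1, 16.8 and 14.8 in wild type, 16.6, 17.4 and 13.5 with mock, 21.8 and 28.1 in wild type with DEX and 26.3, 33.6 and 31.4 in 35s::STM-GR with DEX. It was the one member that was highest in the microRNA line. RVE7 was at 8.79 and 7.31 CPM in the microRNA line, 12.2, 13.6 and 14.0 in ap1-1, 11.7 and 18.1 in wild type, 18.3 and 20.5 in wild type with DEX, 21.8, 20.1 and 18.9 with mock and 50.1, 51.3 and 49.3 in 35s::STM-GR with DEX. As with RVE1, the DEX-sprayed 35s::STM-GR libraries stood apart from all others. Across the 9 genes the microRNA line was the lowest group for 7 and 35s::STM-GR with DEX the highest for 8.

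**Figure D2:**
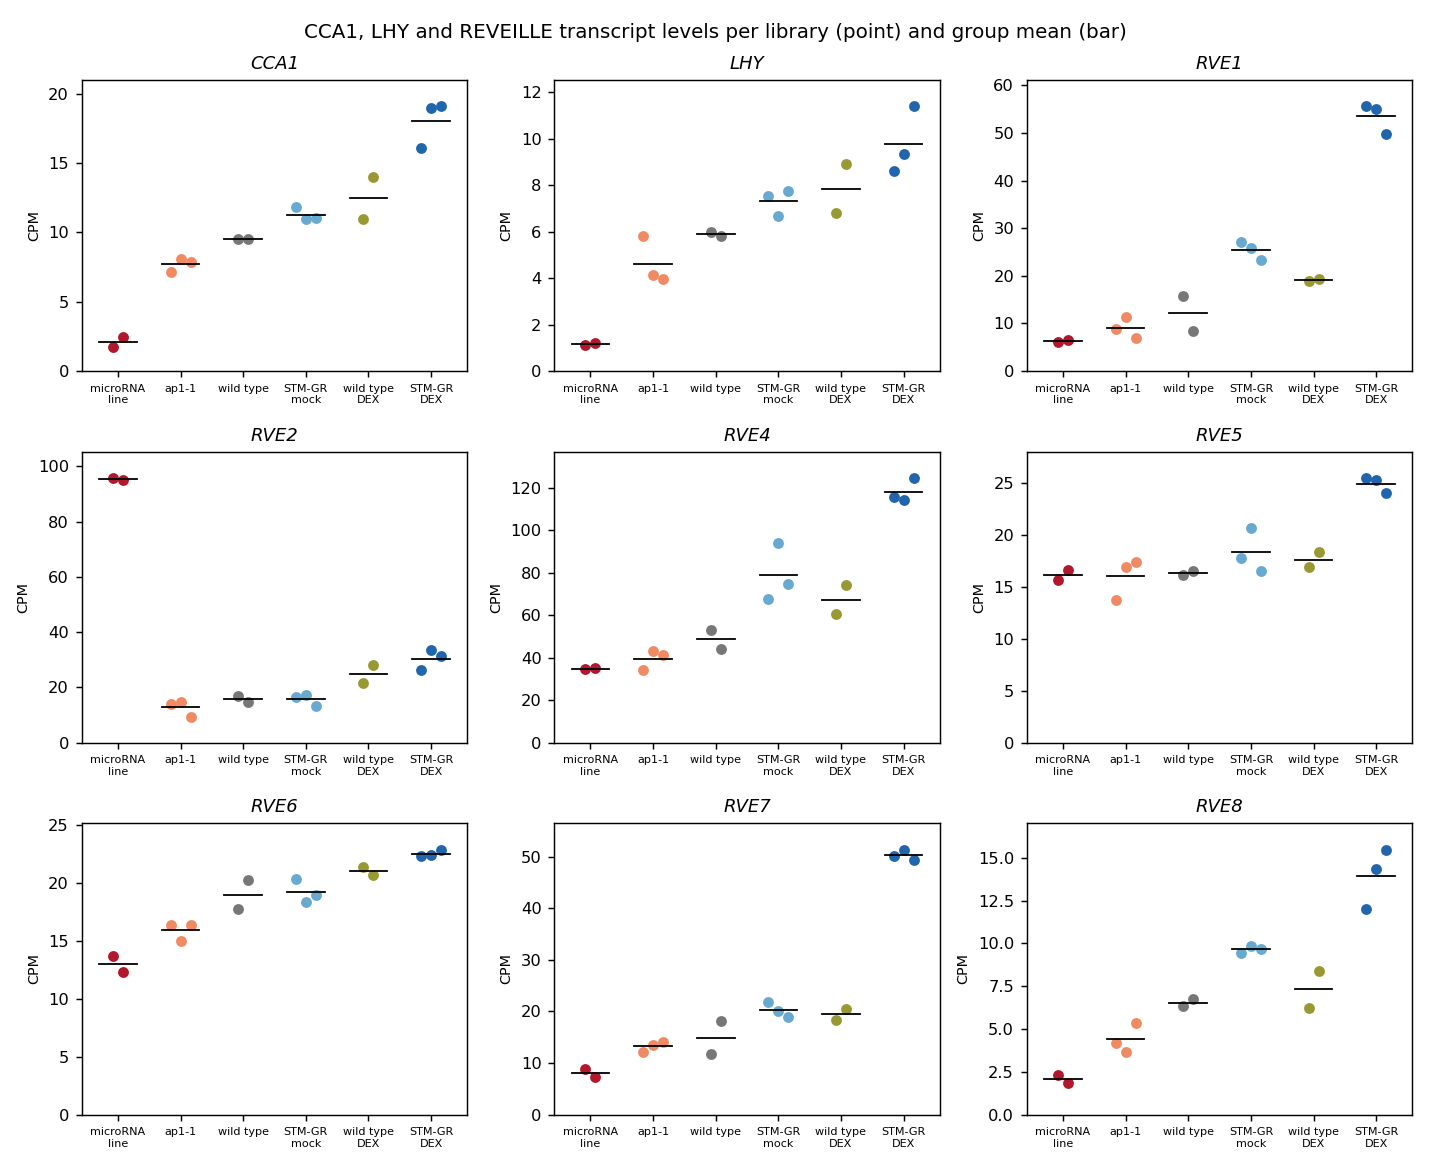
Transcript level of each gene in CPM (y axis, from 0) in the 6 groups (x axis), with a point per library in replicate order and a bar at the group mean. 35s::STM-GR with DEX is highest in 8 panels, and in that of RVE2 the microRNA line lies at 94.9 and 95.7 CPM, above every other library.

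The microRNA line was compared with ap1-1, which asks how the transcripts stood in plants carrying the microRNA in the AP1 domain. In these libraries STM was lower and a fall of BP was not shown. CCA1 and LHY were both about 4 times lower, RVE8, RVE7 and RVE6 were lower by less, and RVE2 was 7.43-fold higher. In edgeR (quasi-likelihood F test, p-values adjusted by Benjamini-Hochberg over all genes tested), 1 of 9 rose and 5 of 9 fell, where 16.3% of all genes tested were called (4.87% higher and 11.4% lower). The median log2 fold change of the 9 was -0.52, against -0.00071 over all genes. In 7 of 9 the libraries of both groups did not overlap, as in 38.9% of all genes tested. In this bulk tissue, fewer cells of a type and less RNA per cell cannot be told apart.

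RVE2, a MYB-like gene of the clock with a role in seed dormancy, had a log2 fold change of 2.89 ± 0.17 (SE, edgeR adjusted p = 1.52e-07). The log2 fold change of CCA1 was -1.88 ± 0.17 (edgeR adjusted p = 6.76e-06) and that of LHY was -2.0 ± 0.24 (edgeR adjusted p = 4.94e-05). RVE2 and the pair it is related to thus moved in opposite directions in the same libraries. RVE8, the activator of evening genes, fell by 1.09 ± 0.21 in log2 terms (edgeR adjusted p = 0.00205), while its relatives RVE4 (-0.18 ± 0.14, adjusted p = 0.453) and RVE5 (0.02 ± 0.11, adjusted p = 0.946) were not called. RVE7 fell by 0.72 ± 0.16 (edgeR adjusted p = 0.00586), but without microRNA-line replicate 2 the adjusted p was 0.103. RVE1 had a log2 fold change of -0.52 ± 0.23 (edgeR adjusted p = 0.157), and was called lower without wild-type replicate 1 (adjusted p = 0.0443) or 2 (0.0406).

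RVE6 fell by 0.29 ± 0.09 (edgeR adjusted p = 0.0407), and this call did not hold in several other settings. The adjusted p was 0.0700 in DESeq2, 0.0555 in limma-voom, 0.0624 without the filter on low counts, 0.277 with only these groups in the fit and 0.0752 with the replicate number as a block. It was also lost without ap1-1 replicate 1 (0.0651) or 3 (0.0696), microRNA-line replicate 1 (0.0582) or 2 (0.323), mock replicate 3 (0.0572) and wild-type DEX replicate 1 or 2 (0.0503 each). Markers of other tissues also differed in this comparison. Summed over 3 mature pollen genes the level was 222 to 227 CPM in the microRNA line and 772 to 1003 CPM in ap1-1, and 3 of 3 fell. Of 7 photosynthetic genes 2 rose and 3 fell, with sums of 13841 to 15653 CPM and 13196 to 18058 CPM. Their log2 fold changes ran from -1.68 to 0.52, so the largest change was a fall. The risers were RCA and GAPA: without microRNA-line replicate 1 neither was called (edgeR adjusted p = 0.252 and 0.169), nor with only these groups in the fit (0.240 and 0.137), and RCA lost the call in most other settings too. Of the meristem markers STM and WUS fell. None of 3 tapetum genes (2 at an unadjusted p under 0.05) and none of 3 secondary-wall genes (0) was called in edgeR, DESeq2 or limma-voom, although the tapetum gene AMS was called lower without ap1-1 replicate 3 (adjusted p = 0.00729). The part of tissue makeup in the change of the 9 genes was not tested.

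Activation of STM-GR was read from 35s::STM-GR plants 5 h after DEX against those after mock. All 9 genes were higher on average with DEX. RVE7 was 2.48-fold higher, RVE1 2.11-fold and RVE2 1.93-fold, CCA1 1.60-fold, and RVE4, RVE8 and RVE5 1.5-fold, 1.44-fold and 1.36-fold. In edgeR 7 of 9 rose and none fell, where 12.7% of all genes tested were called (5.56% higher and 7.15% lower). The median log2 fold change of the 9 was 0.59, against 0.010 over all genes. The libraries did not overlap in any of the 9, as in 40.8% of all genes.

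RVE7 had a log2 fold change of 1.31 ± 0.12 (edgeR adjusted p = 8.70e-06), RVE1 of 1.08 ± 0.17 (adjusted p = 7.13e-04) and RVE2 of 0.95 ± 0.15 (adjusted p = 8.03e-04), so the RVE1, RVE2 and RVE7 branch showed the largest rises of the 9. CCA1 rose by 0.68 ± 0.12 (edgeR adjusted p = 0.00143), whereas LHY, at 0.42 ± 0.15, was not called (adjusted p = 0.0928). LHY was called with only these groups in the fit (0.0423) or without ap1-1 replicate 1 (0.0404). Of the RVE8 branch, RVE4 rose by 0.59 ± 0.12 (edgeR adjusted p = 0.00459), RVE5 by 0.45 ± 0.10 (adjusted p = 0.00769) and RVE8 by 0.53 ± 0.14 (adjusted p = 0.0230). RVE6, at 0.23 ± 0.08, was not called (edgeR adjusted p = 0.0632) but was with only these groups (0.0252) or without ap1-1 replicate 1 (0.0475) or 3 (0.0499). The RVE5 call was lost without mock replicate 3 (adjusted p = 0.050). The RVE8 call was lost without DEX replicate 2 (0.0840) or 3 (0.108) or mock replicate 1 (0.0920), 2 (0.0507) or 3 (0.0766). Markers of other tissues gave 0 calls in edgeR for 3 pollen genes (1 at an unadjusted p under 0.05, 0 in DESeq2 and limma-voom) and for 7 photosynthetic genes (1 at an unadjusted p under 0.05, 1 in DESeq2, 0 in limma-voom), whose sums were 12000 to 13361 CPM with DEX and 13039 to 13453 CPM with mock. The photosynthetic gene called in DESeq2 was LHCB2.1 (higher, adjusted p = 0.0425). In edgeR LHCB2.1 was called higher with only these groups in the fit (0.00844) and without ap1-1 replicate 1 (0.0309) or 3 (0.0362). In edgeR 0 were also called of 3 secondary-wall genes (1 at an unadjusted p under 0.05, 1 in DESeq2, 0 in limma-voom) and 3 tapetum genes (0 in each, although AMS was called higher with only these groups in the fit, adjusted p = 0.0328). The secondary-wall gene was CESA4 (log2 -0.35 ± 0.13, edgeR adjusted p = 0.0806), which was called lower in DESeq2 (0.0463), with the replicate block (0.0411) and in edgeR without ap1-1 replicate 1 (0.0336) or DEX replicate 1 (0.0102). Of the 6 meristem markers tested, KNAT1, CLV1, LFY and UFO rose, STM had a log2 fold change of 0.01 and WUS, at 26.3 against 30.8 CPM, was not called (log2 -0.23 ± 0.10, edgeR adjusted p = 0.154). The part of tissue makeup in the response to DEX was not tested.

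Whether DEX spray alone moved these transcripts was read from DEX-sprayed against unsprayed wild type, a comparison in which spray and DEX are not separated. All 9 means were higher after DEX spray, with log2 fold changes from 0.11 (RVE5) to 0.66 (RVE1 and RVE2). None of 9 was called in edgeR, DESeq2 or limma-voom (5 had an unadjusted edgeR p under 0.05), where edgeR called 0.617% of all genes (0.484% higher and 0.134% lower). Libraries did not overlap in 8 of 9, as in 45.8% of all genes. RVE1 was called higher without wild-type replicate 1, the library at 15.8 CPM (log2 fold change 1.19, edgeR adjusted p = 0.0122). The other values were 0.47 ± 0.15 for RVE4, 0.41 ± 0.19 for LHY, 0.39 ± 0.15 for CCA1, 0.38 ± 0.16 for RVE7, 0.16 ± 0.18 for RVE8 and 0.15 ± 0.09 for RVE6.

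The difference between the DEX responses of both genotypes was tested as an interaction. RVE7 was the member called, with a response larger by 0.93 ± 0.20 on the log2 scale in 35s::STM-GR (edgeR adjusted p = 0.0246), where 1.93% of all genes were called (0.944% higher and 0.985% lower). Its response was 1.31 in 35s::STM-GR and 0.38 in wild type. The call was lost without 35s::STM-GR DEX replicate 1 (adjusted p = 0.0509), 2 (0.0652) or 3 (0.0504), mock replicate 2 (0.0522) or 3 (0.0687), or wild-type DEX replicate 1 (0.159) or 2 (0.0734). Without wild-type replicate 2, the higher of the unsprayed pair, the difference was 0.57 (edgeR adjusted p = 0.134). The other 8 differences were 0.0045 for LHY, 0.08 for RVE6, 0.11 for RVE4, 0.29 for CCA1 and RVE2, 0.34 for RVE5, 0.37 for RVE8 and 0.42 for RVE1 (SE 0.12 to 0.28), and none was called. For those 8, a response of 35s::STM-GR beyond that of wild type was therefore not shown.

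With DEX on both, 35s::STM-GR was also compared with wild type, which shares its libraries with both comparisons above. Here 6 of 9 were higher and none lower, where 10.8% of all genes were called (4.92% higher and 5.92% lower), and libraries did not overlap in 7 of 9, as in 50.5% of all genes. RVE1 was 2.80-fold higher (log2 1.48 ± 0.20, edgeR adjusted p = 2.28e-04), RVE7 2.58-fold (1.37 ± 0.14, adjusted p = 2.30e-05), RVE8 1.90-fold (0.93 ± 0.16, adjusted p = 0.00212) and RVE4 1.75-fold (0.81 ± 0.14, adjusted p = 0.00138). CCA1 (0.53 ± 0.13, edgeR adjusted p = 0.0170) and RVE5 (0.50 ± 0.11, adjusted p = 0.00921) were higher by less. LHY (0.31 ± 0.17), RVE2 (0.28 ± 0.16) and RVE6 (0.10 ± 0.09) were not called, RVE2 being among the 3 highest log2 values after DEX over mock. Without wild-type DEX replicate 1, CCA1 (adjusted p = 0.294), RVE5 (0.146) and RVE8 (0.0669) lost the call, and CCA1 also without 35s::STM-GR DEX replicate 2 (0.0675) or 3 (0.0629).

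Mock-sprayed 35s::STM-GR plants stood above unsprayed wild type in 2 of 9 genes, where 1.69% of all genes were called (0.949% higher and 0.741% lower), and libraries did not overlap in 6 of 9, as in 37.2% of all genes. RVE1 had a log2 fold change of 1.07 ± 0.20 (edgeR adjusted p = 0.0143) and RVE4 of 0.70 ± 0.14 (adjusted p = 0.0168). Both calls were lost with only these groups in the fit (0.102 and 0.10), without mock replicate 2 (0.0529 and 0.0601) and without wild-type replicate 2 (0.194 and 0.307). Without that last library, RVE7 was called higher (0.79, edgeR adjusted p = 0.0128, against 0.44 and 0.158 with it). Against DEX-sprayed wild type, mock-sprayed plants had 0 of 9 called in edgeR, DESeq2 and limma-voom (2 had an unadjusted edgeR p under 0.05), where 0.0322% of all genes were called (0.0184% higher and 0.0138% lower), and libraries did not overlap in 4 of 9, as in 29.5% of all genes. The value farthest from 0 was that of RVE2, -0.66 ± 0.17 (edgeR adjusted p = 0.326).

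**Figure D3:**
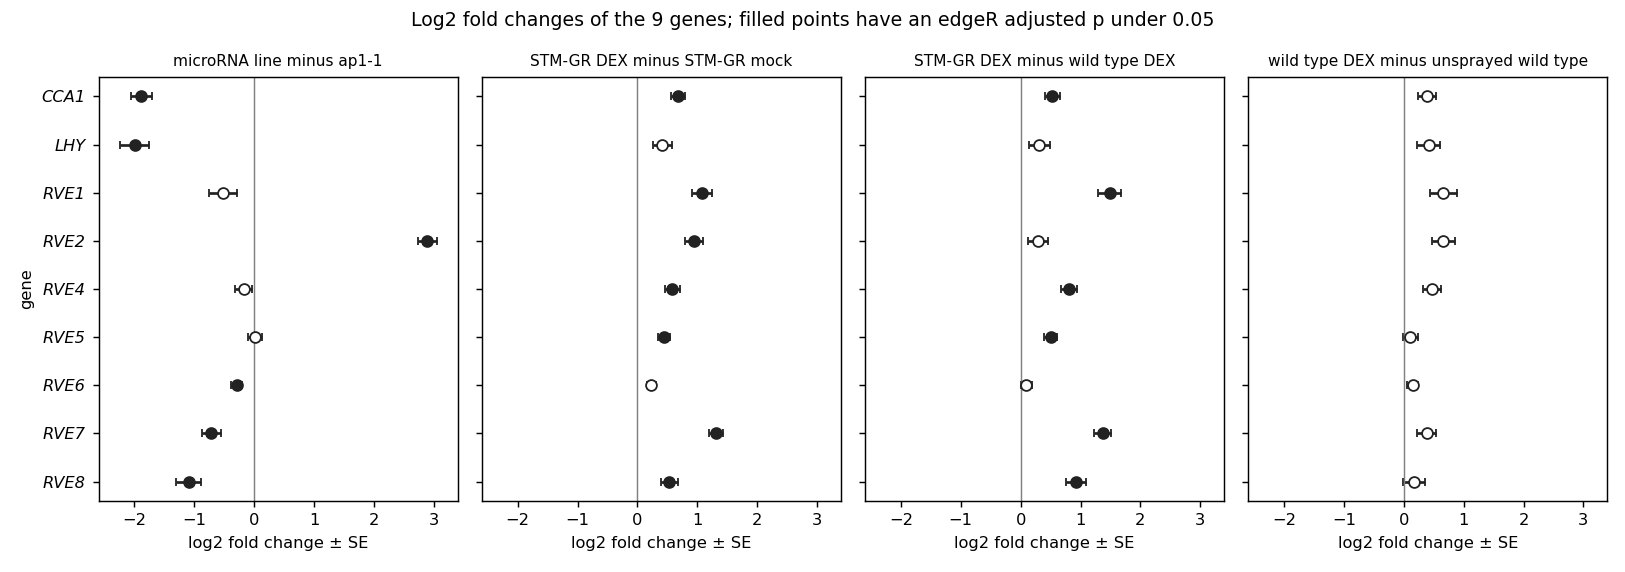
Log2 fold change ± SE (x axis) of each of the 9 genes (y axis) in 4 comparisons, with filled points at an edgeR adjusted p under 0.05. RVE2 lies at 2.89 and CCA1 and LHY at -1.88 and -2.0 in the microRNA line against ap1-1, and all 9 lie above 0 in the 3 comparisons that involve DEX.

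Unsprayed ap1-1 and the microRNA line were each set against unsprayed wild type, which gives both the same control. In ap1-1 all 9 means were at or below wild type, with log2 fold changes from -0.03 (RVE5) to -0.57 (RVE8). RVE8 was the member called (-0.57 ± 0.17, edgeR adjusted p = 0.0498), where 10.6% of all genes were called (5.42% higher and 5.19% lower), and libraries did not overlap in 5 of 9, as in 32.3% of all genes. That call was lost in limma-voom (0.0585), with only these groups (0.258) and without 11 of the 15 libraries in turn, with adjusted p of up to 0.175. RVE1 was called lower without wild-type replicate 2 (-0.81, edgeR adjusted p = 0.0157).

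In the microRNA line against wild type 7 of 9 were lower and 1 higher, where 28.9% of all genes were called (12.1% higher and 16.8% lower), and libraries did not overlap in 8 of 9, as in 67.5% of all genes. RVE2 was 6.03-fold higher (log2 2.59 ± 0.19, edgeR adjusted p = 5.63e-07), so its level in the microRNA line stood above both unsprayed controls. LHY (-2.33 ± 0.25), CCA1 (-2.20 ± 0.18) and RVE8 (-1.67 ± 0.22) were lower, with edgeR adjusted p of at most 5.02e-05. RVE7 (-0.89 ± 0.17, edgeR adjusted p = 0.00115) and RVE6 (-0.55 ± 0.10, adjusted p = 7.09e-04) were lower as well. RVE1 (-0.94 ± 0.25, edgeR adjusted p = 0.0105) and RVE4 (-0.48 ± 0.15, adjusted p = 0.0285) lost the call without microRNA-line replicate 1 (0.0654 and 0.107) or 2 (0.0528 and 0.101) or wild-type replicate 1 (0.220 and 0.225). RVE5 was at -0.02 ± 0.12 and was not called.

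The LNK coactivators, which bind RVE8 and RVE4 and act with them on evening genes, were counted beside the 9. In the microRNA line against ap1-1 4 of 4 fell, where 11.4% of all genes tested were called lower. Their median log2 fold change was -1.54, against -0.00071 over all genes. LNK4 went to 1.85 from 9.94 CPM (-2.42 ± 0.16, edgeR adjusted p = 8.07e-07), LNK3 fell by 1.68 ± 0.22 (adjusted p = 9.92e-05), LNK2 by 1.39 ± 0.09 (adjusted p = 4.03e-07) and LNK1 by 0.78 ± 0.09 (adjusted p = 3.22e-05). After DEX over mock in 35s::STM-GR 4 of 4 rose, where 5.56% of all genes were called higher, with a median of 0.48 (0.010 over all genes). LNK4 rose by 0.65 ± 0.10 (edgeR adjusted p = 7.97e-04), LNK3 by 0.62 ± 0.16 (adjusted p = 0.0176), LNK2 by 0.33 ± 0.07 (adjusted p = 0.00717) and LNK1 by 0.33 ± 0.08 (adjusted p = 0.00947). LNK3 lost that call without DEX replicate 3 (0.0970) or mock replicate 2 (0.0600) or 3 (0.0689). In the interaction 0 of 4 were called in edgeR, DESeq2 and limma-voom (1 at an unadjusted p under 0.05 in edgeR), where edgeR called 1.93% of all genes.

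The pseudo-response regulators repress CCA1 and LHY in sequence through the day. In the microRNA line against ap1-1 1 of 5 rose and 3 fell (4.87% and 11.4% of all genes). PRR9, the earliest of them, was at 0.610 against 3.07 CPM, PRR7 fell by 0.75 ± 0.10 (edgeR adjusted p = 8.45e-05) and PRR5 by 0.43 ± 0.08 (adjusted p = 0.00141), while PRR3 rose by 0.52 ± 0.08 (adjusted p = 3.29e-04). The PRR9 level rested on 12 counts in each microRNA library. TOC1, a target of CCA1 and LHY, was at 221 against 181 CPM and was not called (log2 0.29 ± 0.12, edgeR adjusted p = 0.110). After DEX over mock, where 5.56% of all genes were called higher, 2 of 5 rose, PRR9 (1.0 ± 0.19) and PRR5 (0.49 ± 0.07). TOC1 was called higher with only these groups in the fit (edgeR adjusted p = 0.0449). In the interaction 0 of 5 were called in edgeR (0 at an unadjusted p under 0.05), where 1.93% of all genes were called. PRR5 was at 84.2 CPM with DEX and 60.0 with mock, beside 69.8 in unsprayed and 87.6 in DEX-sprayed wild type, and the DEX-treated plants of both genotypes were not called different (log2 -0.06 ± 0.08, edgeR adjusted p = 0.719). Among 8 evening complex and light-input genes, 3 rose in the microRNA line, FKF1 (0.47 ± 0.08), ELF3 (0.46 ± 0.08) and BOA (0.45 ± 0.12), of which BOA lost the call without ap1-1 replicate 3 (adjusted p = 0.0561) or microRNA-line replicate 1 (0.109) or 2 (0.132). ELF4 was not called in the main fit but was called higher in DESeq2 (adjusted p = 0.0474) and limma-voom (0.0379). In edgeR it was also called without the filter (0.0476), with the replicate block (0.0393) and without ap1-1 replicate 3 (0.00925). After DEX 3 of 8 rose, FKF1 (0.51 ± 0.07), ZTL (0.29 ± 0.06) and LKP2 (0.26 ± 0.08), and LKP2 lost the call in most other settings (adjusted p = 0.0663 in DESeq2). With only these groups in the edgeR fit ELF4 (adjusted p = 0.0214) and LUX (0.0299) were called higher as well. Both were also called without ap1-1 replicate 3 (0.0388 and 0.0382), and ELF4 without replicate 1 (0.0189). In the interaction 0 of 8 were called in edgeR (1 at an unadjusted p under 0.05). FKF1 was called higher there with only the groups compared (0.0339) or without ap1-1 replicate 1 (0.0272). FKF1 was at 57.6 CPM with DEX and 40.4 with mock, beside 58.3 in unsprayed and 61.9 in DEX-sprayed wild type. The mock libraries were thus the low ones for FKF1, called lower than unsprayed (log2 -0.53 ± 0.08, edgeR adjusted p = 0.00303) and DEX-sprayed wild type (-0.61 ± 0.08, adjusted p = 0.00989), and DEX-treated 35s::STM-GR was not called different from DEX-treated wild type (-0.10 ± 0.08, adjusted p = 0.487). Mock PRR5 was also called lower than in DEX-sprayed wild type (-0.55 ± 0.08, edgeR adjusted p = 0.0128). In that comparison no gene was called lower without mock replicate 1 or 3 or either wild-type DEX replicate.

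Of 10 regulators and partners of CCA1 and LHY, 4 rose and 1 fell in the microRNA line against ap1-1 (4.87% and 11.4% of all genes). JMJD5, a clock gene of the histone demethylase family, was at 261 against 61.8 CPM (log2 2.08 ± 0.15, edgeR adjusted p = 1.15e-06). COR27, a cold- and clock-regulated gene, rose by 1.34 ± 0.13 (adjusted p = 1.08e-05) and TCP22 by 0.48 ± 0.09, while CHE, a TCP factor that binds the CCA1 promoter, fell by 0.76 ± 0.10 (adjusted p = 1.44e-04). The remaining riser was COR28 (0.68 ± 0.15), which lost the call with only these groups (adjusted p = 0.0600) or without microRNA-line replicate 2 (0.0861). After DEX over mock 0 of 10 were called in edgeR, DESeq2 and limma-voom (0 had an unadjusted edgeR p under 0.05), where edgeR called 12.7% of all genes. The regulators that moved most in the microRNA line, JMJD5 (-0.18 ± 0.14) and COR27 (0.11 ± 0.12), were not called there.

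Among 13 output genes of the clock, 5 fell and none rose in the microRNA line against ap1-1 (11.4% and 4.87% of all genes). These were PIF4 (-1.61 ± 0.11) and PIF5 (-1.23 ± 0.14), growth factors of the bHLH class that bind G-boxes, CDF1 (-1.87 ± 0.30) and CDF3 (-1.0 ± 0.21), repressors of CONSTANS, and CBF2, a cold-response factor at 0.0751 against 0.883 CPM. In the microRNA libraries CBF2 rested on 1 and 2 counts and CDF1 on 21 and 22, so depth limits both. CBF2 held 15 to 25 counts in ap1-1. PIF4 was at 13.6 CPM in the microRNA line and 41.4 in ap1-1 but 14.8 in unsprayed wild type, so it was higher in ap1-1 than in wild type (log2 1.48 ± 0.10, edgeR adjusted p = 1.46e-06) and not called in the microRNA line against wild type (-0.13 ± 0.12, adjusted p = 0.45). PIF5, CDF1, CDF3 and CBF2 were called lower there too. After DEX over mock 5 of 13 rose, where 5.56% of all genes were called higher. CDF2 rose by 0.77 ± 0.11 (edgeR adjusted p = 3.64e-04), CBF2 by 1.85 ± 0.31 (adjusted p = 0.00119), and YUC8, an auxin synthesis gene that RVE1 activates, by 1.11 ± 0.23 (adjusted p = 0.00606). With mock YUC8 rested on 12 to 22 counts and CBF2 on 18 to 22. PIF4 (0.33 ± 0.09) was called too, and lost the call without DEX replicate 1 (0.125) or 2 (0.141) or any mock replicate (0.0518 to 0.111). The remaining riser was CBF3 (1.06 ± 0.29), which lost the call without DEX replicate 2 (0.0676) or 3 (0.0967) or any mock replicate (0.0592 to 0.107). In the interaction 0 of 13 were called in edgeR (6 at an unadjusted p under 0.05), where 1.93% of all genes were called. CBF1 (adjusted p = 0.0296) and CBF2 (0.0282) were called higher there in DESeq2. In some of the other settings CBF1, CBF2, CBF3 or PIF4 was called higher. CBF1 was at 0.410 and 4.42 CPM in the 2 unsprayed wild-type libraries. A response beyond that of wild type was thus not shown for the output genes in the main fit. RVE3, a relative of RVE8 outside the 9 genes, was at 0.625 against 0.551 CPM in the microRNA line and ap1-1 and was not called in either comparison.

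**Figure D4:**
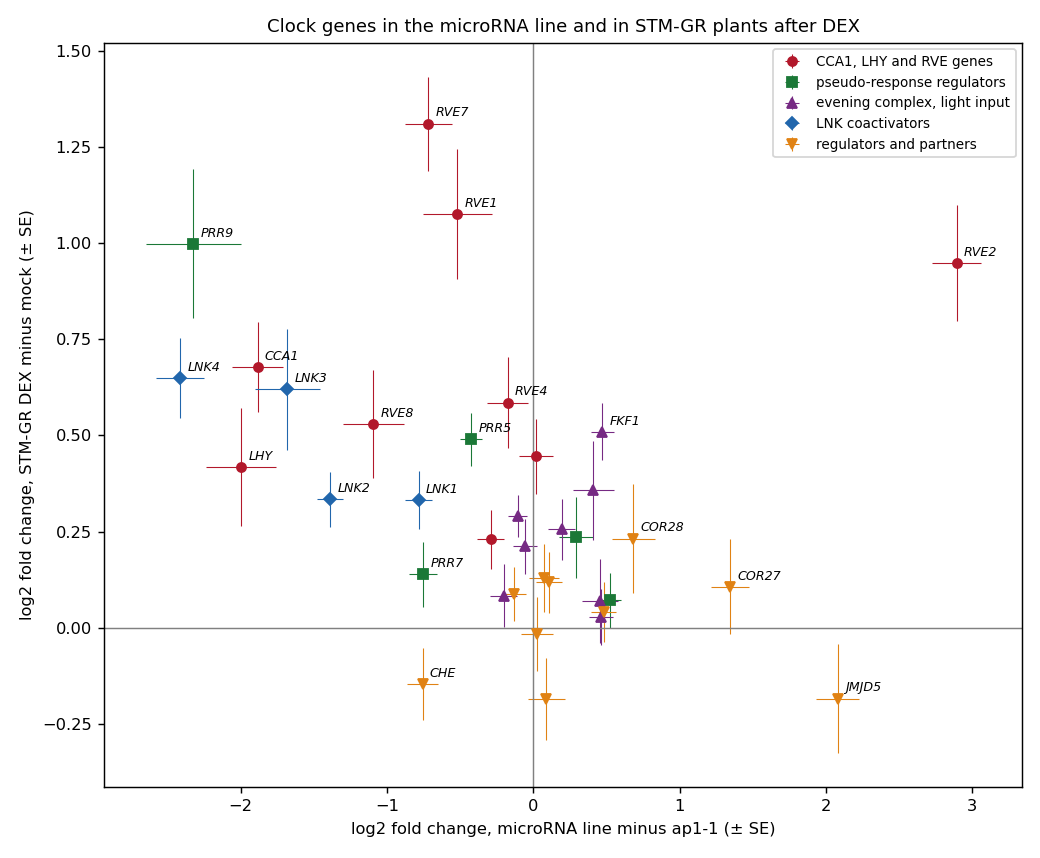
Log2 fold change ± SE in the microRNA line against ap1-1 (x axis) and in 35s::STM-GR with DEX against mock (y axis) for the 9 genes (red circles) and 4 other lists of clock genes (symbols as in the key). CCA1, LHY, RVE8 and the 4 LNK genes lie left of 0 and above 0, RVE2 lies far to the right at 2.89 and 0.95, and JMJD5 lies to the right and below 0.

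Likeness of pattern was measured as the root-mean-square difference between centred log2 CPM values over the 15 libraries, and is given as a description. Among the 9 genes the closest pair was CCA1 and LHY (0.19), followed by RVE5 and RVE6 (0.22) and by CCA1 and RVE8 (0.34). LHY and RVE2 were farthest apart (1.66). RVE5 and RVE6 varied little over the libraries, so a small difference between them is easily reached. Of 18239 other genes searched, those nearest to CCA1 were PERK4 (0.23), LNK4 (AT5G06980, 0.23) and AT5G07410 (0.24), and PERK4 (0.15) and AT5G07410 (0.16) were also nearest to LHY, with AT4G16745 (0.17). For RVE8 they were AGT3 (0.20), MIR163 (0.23) and AT2G29670 (0.24), and for RVE4 AT2G36630 (0.14), AT4G01870 (0.15) and AT1G15740 (0.16). For RVE1 they were SIS (0.20), BGLU46 (0.35) and AT4G16680 (0.36), and for RVE7 AT2G26690 (0.21), AT1G33110 (0.24) and AT5G42680 (0.27). RVE2 had the most distant neighbours, AT3G28270 (0.53), AT3G60420 (0.58) and BT2 (0.63). The nearest to RVE5 were AT1G24440 (0.086), LIS (0.088) and PCME (0.091), and to RVE6 BTI1 (0.080), GR1 (0.089) and HEMA2 (0.090).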

How the data were processed

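Per the submitters' processing notes, reads were processed with TopHat2 2.0.6, HTSeq 0.62 and DESeq2 against TAIR10; the strand setting is not given in the sources used here. The authors deposited 1 table of raw counts per gene for each of the 15 libraries and 1 table of normalized signal, each value of which equals the count divided by a constant per library. Entries naming no gene (5.49% to 6.63% of reads) were left out of library sizes and tests.

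Differential expression was tested on the deposited counts with edgeR 4.0.16 in R 4.3.3 (filterByExpr with a minimum count of 10, TMM, quasi-likelihood F test in 1 fit of 6 group means, Benjamini-Hochberg over 21716 genes, called at an adjusted p under 0.05). The biological coefficient of variation was 9.85%. A standard error is the log2 fold change over the square root of F. Log2 CPM used a prior count of 2, and likeness was searched among genes with a mean log2 CPM of at least 1. The script was tested on simulated counts.

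Alternatives were DESeq2 size factors in edgeR, DESeq2 1.42.0, limma-voom (limma 3.58.1), no filter, only the groups compared, limma on log2 of the deposited signal plus 1, the replicate block, and each library left out. The members and gene lists were chosen with earlier results of these data known. All 9 genes are named in every comparison, up to 4 called genes of each other list by lowest adjusted p, and the 3 nearest genes to each member. COR28, CDF3, CBF3, TOC1, RVE3, WUS and CESA4 after DEX were added after their values were seen. So were the wild-type levels of PIF4, FKF1 and PRR5 and the values of JMJD5 and COR27 after DEX. The same holds for ELF4, LUX, LHCB2.1 and the interaction values of FKF1, PIF4 and the CBF genes. The allele is ap1-1 in the labels of the samples and ap1-4 in the design text of the series.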

Additional observations from a re-analysis of the deposited data

Results flagged for a closer look

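The DEX response of RVE7 differed between genotypes in a test of the difference itself. In 35s::STM-GR it went from 21.8, 20.1 and 18.9 CPM with mock to 50.1, 51.3 and 49.3 CPM with DEX, and in wild type from 11.7 and 18.1 CPM unsprayed to 18.3 and 20.5 CPM with DEX. The interaction was 0.93 ± 0.20 on the log2 scale (edgeR adjusted p = 0.0246). The control of 35s::STM-GR was mock-sprayed and that of wild type unsprayed, so spray and DEX are not separated on the wild-type side. Without wild-type replicate 2 the difference was 0.57 (edgeR adjusted p = 0.134), and 7 other libraries left out in turn also ended the call. RVE7 shares 58.8% of its exonic words with other places in the genome, and the part of shared reads in the difference was not tested.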

How the results depend on the processing

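Over all settings, no call of the 9 genes changed direction, 57 values of single genes lost the call, 10 gained it and 1715 kept their side of the threshold. The number of the 9 called, with each library left out in turn, was 4 to 7 for the microRNA line against ap1-1, 5 to 9 for DEX against mock in 35s::STM-GR, 0 to 1 for DEX in wild type, 0 to 1 for the interaction, 0 to 1 for ap1-1 against wild type, 6 to 8 for the microRNA line against wild type, 3 to 6 for 35s::STM-GR against wild type with DEX, and 0 to 2 and 0 to 0 for mock 35s::STM-GR against unsprayed and DEX-sprayed wild type. In the other 7 settings, ap1-1 against wild type had 0 called in limma-voom and with only these groups, and mock 35s::STM-GR against unsprayed wild type had 0 with only these groups. Over all genes, calls in the microRNA line against ap1-1 went from 3532 to 1947 with only these groups, 2013 without microRNA-line replicate 1 and 1650 without replicate 2. For DEX against mock in 35s::STM-GR they went from 2760 to 5054 with only these groups, and to 1708, 1702, 1466 and 1552 without DEX replicates 2 and 3 and mock replicates 1 and 3. For ap1-1 against wild type they went from 2306 to 234 with only these groups. For DEX in wild type they went from 134 to 66 with only these groups and to 246 in DESeq2, for the interaction from 419 to 721 with only these groups, for 35s::STM-GR against wild type with DEX from 2355 to 4586, and for mock 35s::STM-GR against unsprayed and DEX-sprayed wild type from 367 to 119 and from 7 to 55 (638 and 61 in DESeq2). Leaving out wild-type replicate 1 or 2 or ap1-1 replicate 3 gave 991, 1461 and 3630 calls for ap1-1 against wild type, and leaving out microRNA-line replicate 2 or wild-type replicate 1 gave 3611 and 3866 of 6283 for the microRNA line against wild type. For 35s::STM-GR against wild type with DEX it was 1458 without DEX replicate 2, and 714 and 1090 without wild-type DEX replicates 1 and 2; for DEX in wild type 39 without wild-type DEX replicate 2, and 262 and 43 without wild-type replicates 1 and 2. For the interaction it was 634 without ap1-1 replicate 1, 199 and 220 without wild-type DEX replicates 1 and 2, and 252 without wild-type replicate 2; for mock 35s::STM-GR against unsprayed wild type 576 without ap1-1 replicate 1, 155 without mock replicate 2, and 624 and 107 without wild-type replicates 1 and 2. For mock 35s::STM-GR against DEX-sprayed wild type it was 13 and 12 without ap1-1 replicates 1 and 2, 12 without either wild-type replicate, 3 without mock replicate 1 or 3, and 2 and 1 without wild-type DEX replicates 1 and 2. The cause was not tested. With the replicate block 5 of the 9 were called in the microRNA line against ap1-1 (RVE6 lost) and the counts of the other comparisons were the same. The block and the correlations that follow used the replicate numbers of the sample titles. The submitters' names for the normalized signal number the wild-type DEX libraries 2 and 3, where the titles have 1 and 2. Which numbers mark sets, if any, is not said. Deviations of same-numbered libraries correlated at -0.13 to 0.21 and of others at -0.19 to 0.22. In groups of 2 libraries the 2 deviations mirror each other, so these ranges cannot tell whether the numbers pair the samples. Depth limits LHY, CCA1 and RVE8 in the microRNA line, and PRR9, CDF1 and CBF2 there as well.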
